A study of Sus scrofa with 6 samples.

Results

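Ion channels let ions flow down their gradients across a membrane, and ion pumps spend ATP to build those gradients. In the cerebral cortex the sodium pump and the calcium pumps set the resting state of neurons and glia, potassium, calcium and chloride channels shape firing and transmitter release, and connexins join cells through gap junctions. In the embryonic cortex radial glia are coupled by gap junctions, and young neurons acquire their set of channels step by step as they migrate and mature. The genes described here are 64 ion channel and ion pump genes of the pig, out of 6765 genes that could be named on the array. They were chosen by a rule on the symbol, which was set with earlier results of these arrays known. The rule took the families of potassium, sodium, calcium, chloride and TRP channels, and sodium and calcium pumps with their FXYD partners. It also took calcium release channels, VDACs, connexins and purinergic receptors. KCNE2 was left out by the rule. Members in a wider sense are the P2RY genes, which encode G protein coupled receptors, and auxiliary subunits and regulators that conduct no ions by themselves.

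Total RNA of the cerebral cortex was measured in 3 pig embryos at embryonic day 80 (E80), when the first folds are present, and in 3 embryos at embryonic day 60 (E60), when the surface is smooth, with each embryo on an Affymetrix Pig Genome Array of its own. The embryos were untreated, no strain or genotype is given in the labels, and the labels tie no array to a litter, so litter and day cannot be told apart. Replicates are separate samples, and embryos of a day may be litter mates. The p-values set the difference between the days against the spread of the arrays within a day, moderated by that of probe sets of similar signal. The values are MAS5 signals, in which the software combines the matching and mismatching probes of a probe set into 1 intensity and scales each array, so that signals of different probe sets are no levels that can be set against each other. A change is given as the log2 difference of E80 minus E60, and a gene is said to have risen or fallen when the adjusted p of limma, over all 23999 probe sets tested, was under 0.05.

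The arrays were close to each other, with Spearman correlations across probe sets of 0.967 to 0.984 within a day and 0.964 to 0.972 between days. The median signal was 55.6 to 59.5 at E80 and 60.9 to 64.8 at E60. E80 replicate 3 stood apart in transthyretin (TTR), which the choroid plexus secretes in bulk, with a signal of 4475 against 15.1 and 6.25 in the other E80 replicates and 1.47 to 3.70 at E60. All 5 measured markers of neurons were above the median on every array, and their summed signal was 9341 to 9511 at E80 and 7308 to 8320 at E60. Of 7 listed markers of the cortex none was measured, so cortical identity was not checked by them. Of 7 listed markers of the striatum, RXRG and DRD2 were measured, and neither passed, with log2 differences of -1.35 and -1.22. RXRG had signals of 148, 60.5 and 301 at E80 and 630, 201 and 354 at E60, in the order of the replicates. DRD2 had 25.1, 31.4 and 104 at E80 and 118, 57.3 and 153 at E60. The part of striatal tissue in the values of the channel and pump genes was not tested. In this bulk tissue more cells of a type and more RNA per cell cannot be told apart.

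The 64 genes were read by 105 probe sets. A single probe set stood for 38 of them and 2 to 5 probe sets for the other 26, and each gene is represented by its brightest probe set over the 6 arrays. Of the 64 genes, 25 were above the array median on all 6 arrays, 29 were below it on all 6 and 10 were on both sides. The 25 are 39.1% of the 64, against 62.7% of the named genes and 44.2% of all probe sets above it on all 6. By the mean over the arrays 30 of the 64 genes were above it. The median divides close neighbours. TRPM7, just inside, had its lowest signal of 63.7 in E80 replicate 2, where the median was 59.5, and ANO6, just outside, had 59.8 in E60 replicate 3, where the median was 60.9. No probe set carried the symbol alone of a voltage-gated sodium channel, an HCN channel, a two-pore potassium channel, a pore subunit of the calcium channels (CACNA1) or a catalytic subunit of the sodium pump (ATP1A), and these were not analysed here.

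Of the 64 genes, 3 rose and none fell. The sodium pump subunit ATP1B1, the silent potassium channel subunit KCNF1 and the chloride transporter CLCN3 rose, by log2 changes of 0.56, 1.02 and 0.53. Among all probe sets 0.933% rose and 1.01% fell, 1.95% in all, and among the brightest probe sets of all named genes 1.49% rose and 1.05% fell, 2.54% in all. The 3 genes all had a mean signal above the array median, where 2.07% of the named genes rose and 1.47% fell, 3.54% in all. The E80 mean of the log2 signals exceeded that of E60 in 37 of the 64 genes, against 49.9% of the named genes and 44.3% of all probe sets. In 18 genes all E80 arrays lay above all E60 arrays, against 12.8% of the named genes and 9.25% of all probe sets, and in 6 genes all lay below, against 14.7% and 14.4%. At an unadjusted p under 0.05 there were 17 genes with a higher and 1, GJA5, with a lower signal at E80. The same cut was met by 1400 of the 6765 named genes and by 4308 of the 23999 probe sets, in either direction. Their split by direction is not given here, so the split of the 64 genes at this cut has no background beside it. The median log2 difference of the 64 genes was 0.21, against 0.00 over all named genes and -0.05 over all probe sets. Of the 25 genes above the median on all 6 arrays 18 were higher at E80, against 50.55% of the named genes above it on all arrays. In 11 of the 25 all E80 arrays lay above all E60 arrays, against 15.2% of those named genes. The median log2 difference of the 25 was 0.23, against 0.00. The split by the mean signal adds KCNF1, ANO6, ORAI3, FXYD7 and P2RX4, which were all higher at E80, and FXYD7 was above the median at E80 only, so the counts over the 30 genes are a description in which those 5 were let in partly by their E80 signals. Of the 30 genes with a mean signal above the median, 23 were higher at E80 in mean log2 signal, against 50.6% of all named genes above it, and in 15 of the 30 all E80 arrays lay above all E60 arrays, against 15.3%, and in 3 all lay below, against 17.1%. Of the other 34 genes 14 were higher at E80. The median log2 difference of the 30 was 0.35, against 0.00 for all named genes above the median. After centring the arrays on their medians, the median log2 difference of all probe sets moved to 0.06 and that of all named genes to 0.11, 47 of the 64 genes were higher at E80 and 25 of the 30, against 66.7% of all named genes above the median. After quantile normalization 44 of the 64 and 24 of the 30 were higher, against 52.1%. The set of genes was chosen with earlier results of these arrays known, and no test was made over it.

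**Figure D1:**
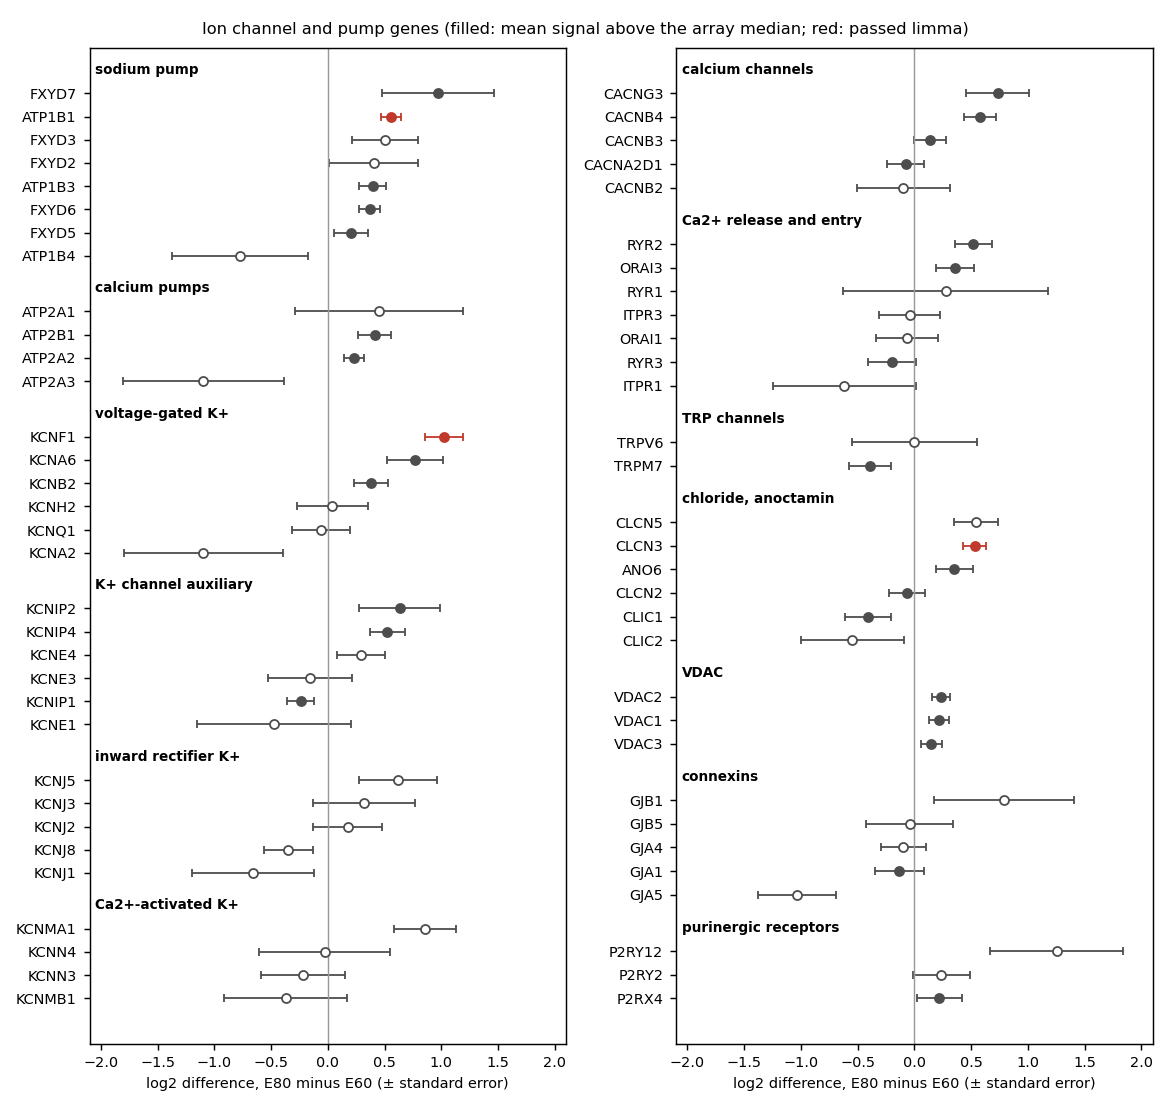
Log2 difference of E80 minus E60 (horizontal axis) with its standard error from limma for the brightest probe set of each of the 64 genes, by gene group (3 arrays per day). Filled points have a mean signal above the array median, and the 3 red points are ATP1B1, KCNF1 and CLCN3, which passed the test with log2 changes of 0.56, 1.02 and 0.53.

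The sodium pump moves sodium out of and potassium into the cell. Its beta subunits carry the catalytic subunit to the membrane, and the small FXYD proteins tune its affinity for ions. Of the 8 measured genes 1 rose and none fell, and 7 were higher at E80 in mean log2 signal. ATP1B1 had signals of 2507, 2573 and 2416 in E80 replicates 1, 2 and 3, against 1697, 1568 and 1835 in E60 replicates 1, 2 and 3. The lowest E80 array was thus well above the highest E60 array. ATP1B1 averaged 2499 ± 78.4 at E80 and 1700.0 ± 134 at E60 (SD, n = 3 each), a log2 change of 0.56 with a standard error of 0.09 (adjusted p = 0.0248, limma). Its second probe set had signals of 1124, 1489 and 1018 at E80 and 881, 811 and 944 at E60, again without overlap, with a log2 difference of 0.44 (adjusted p = 0.155). ATP1B1 did not pass without any single replicate other than E60 replicate 3, with an adjusted p of 0.0335 to 0.116 over the replicates left out, and its log2 difference stayed between 0.50 and 0.61.

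The beta subunit ATP1B2 was not among the measured genes. ATP1B3, another beta subunit, had signals of 919, 1066 and 1220.3 at E80 and 765, 791 and 869.8 at E60. The days did not overlap, and the log2 difference of 0.39 (standard error 0.12, adjusted p = 0.129) did not pass. ATP1B4, a beta-like protein of muscle, was dim, at 2.40 to 10.1 at E80 and 6.40 to 12.5 at E60. All 5 FXYD genes were higher at E80 in mean log2 signal, and none passed. FXYD6, a pump regulator of the brain, had signals of 2416, 2431 and 2386 at E80, against 1697, 1843 and 2074 at E60. Its E80 arrays were nearly equal and all above E60, with a log2 difference of 0.37 (standard error 0.09, adjusted p = 0.0854), which was 0.24 after quantile normalization. FXYD7, a brain-specific regulator, had signals of 64.3, 90.0 and 304 at E80, against 64.0, 61.1 and 59.7 at E60. Only E80 replicate 3 was far above the rest, and the log2 difference was 0.97 with all arrays (adjusted p = 0.351) and 0.31 without it. FXYD5 (0.21), FXYD3 (0.50) and the kidney gamma subunit FXYD2 (0.40) had adjusted p of 0.415 to 0.643. Single arrays moved FXYD2 to 0.0068 without E60 replicate 2, and FXYD5 to 0.13 without E60 replicate 1, 0.12 without E80 replicate 2 and 0.33 without E80 replicate 3.

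Calcium pumps lower the calcium of the cytosol, those of the ATP2A family into the endoplasmic reticulum and those of the ATP2B family out of the cell. None of the 4 measured genes passed. ATP2A2, the pump of the reticulum in most tissues, had signals of 1848, 1808 and 1566 at E80 and 1456, 1474 and 1516 at E60, with a log2 difference of 0.23 (standard error 0.09, adjusted p = 0.231). The days were apart on this probe set, while they overlapped on its other 3, with log2 differences of 0.14, -0.00 and 0.56. The plasma membrane pump ATP2B1 had signals of 1146, 859 and 928 at E80 and 869, 642 and 694 at E60. E60 replicate 1 reached into the range of E80, and the log2 difference was 0.41 (standard error 0.15, adjusted p = 0.189). The muscle pump ATP2A1 and ATP2A3 were below the median on every array.

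Voltage-gated potassium channels open on depolarisation and end the action potential. Of 6 measured genes 1 rose and none fell. KCNF1 encodes a subunit that forms no channel alone and modifies those of the KCNB family. Its signals were 139, 134 and 136 at E80, against 76.8, 53.8 and 72.9 at E60. The E80 arrays were nearly equal and all above E60. KCNF1 averaged 136 ± 2.45 at E80 and 67.8 ± 12.3 at E60 (SD, n = 3 each), a log2 change of 1.02 with a standard error of 0.17 (adjusted p = 0.0291, limma) and a fold of 2.03. Leaving out single replicates gave log2 differences of 0.86 to 1.12 and adjusted p of 0.0499 to 0.125, and only without E60 replicate 3 did it pass. KCNB2, a channel of the family that KCNF1 modifies, had signals of 210.4, 224 and 158 at E80 and 141, 150.4 and 159 at E60. The E80 values reached down to those of E60, and the log2 difference was 0.38 (adjusted p = 0.239). KCNA6, a delayed rectifier of neurons, had signals of 254, 191 and 272 at E80 and 152, 94.7 and 186 at E60. All E80 arrays were above E60 by a narrow margin, with a log2 difference of 0.77 (standard error 0.25, adjusted p = 0.158) that was 0.49 without E60 replicate 2. KCNA2, KCNH2 and KCNQ1 were below the median on every array, and their days overlapped.

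Auxiliary subunits of these channels included 3 KCNIP genes, calcium-binding proteins that attach to the A-type channels of dendrites. None of the 6 auxiliary genes passed. KCNIP4 had signals of 291, 283 and 201 at E80, against 176, 188 and 168 at E60, a log2 difference of 0.53 (standard error 0.16, adjusted p = 0.129) without overlap. KCNIP1, known from interneurons, had signals of 138, 138 and 151 at E80, against 182, 167 and 155 at E60. It was one of the few members of which all E80 arrays lay below E60, with a log2 difference of -0.24 (adjusted p = 0.334). KCNIP2 had 189.9, 251 and 211 at E80 and 267, 109.5 and 91.8 at E60, so that E60 replicate 1 was the highest of all arrays and the days overlapped. KCNE1, KCNE3 and KCNE4, single-pass subunits best known from heart and epithelia, had log2 differences of -0.48 to 0.29.

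**Figure D2:**
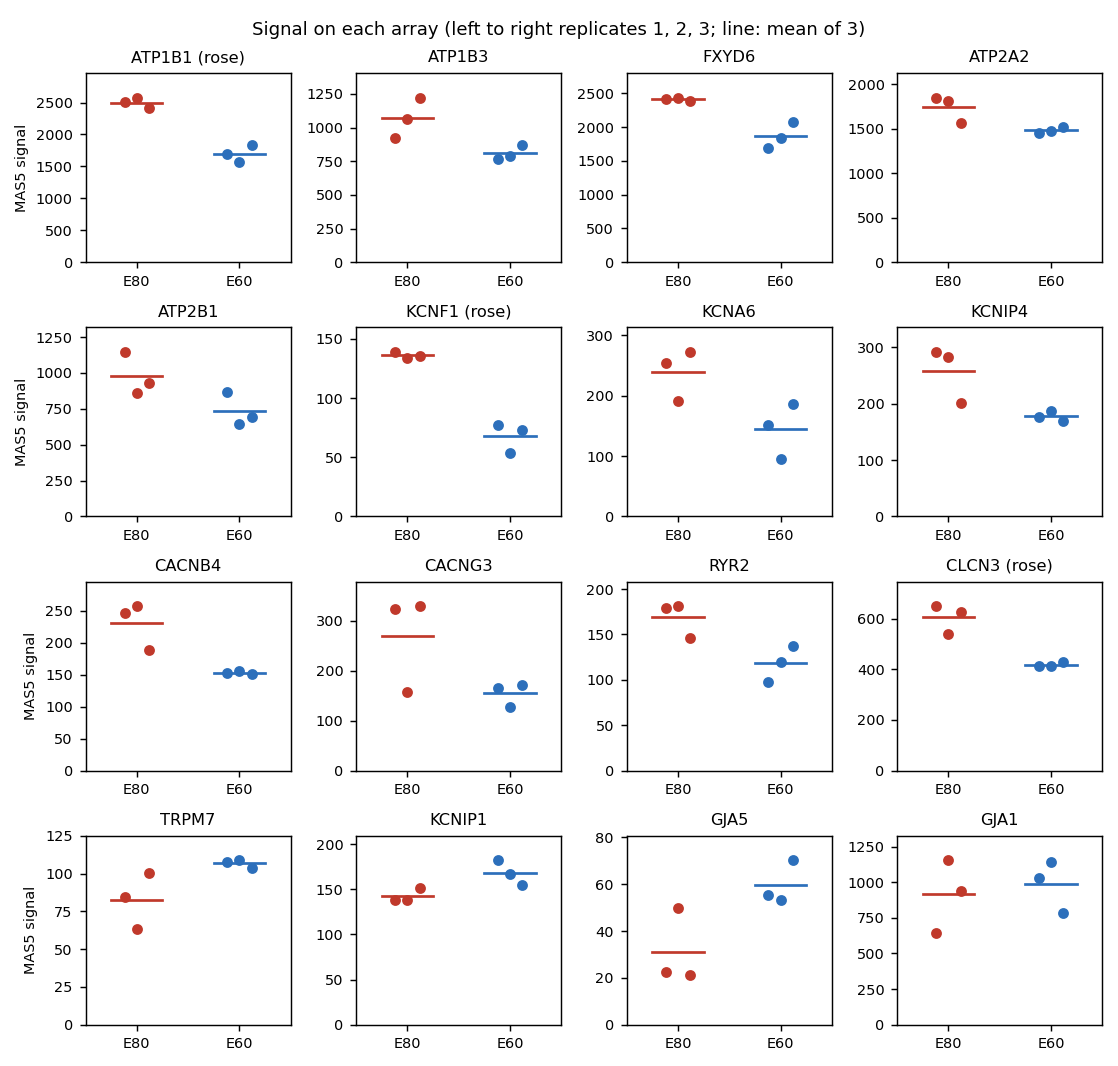
MAS5 signal (vertical axes, from 0) of 16 genes on each array, with E80 in red left of E60 in blue, points for replicates 1, 2 and 3 from left to right and a line at the mean of the 3 arrays. ATP1B1, KCNF1 and CLCN3 passed the test, with means of 2499, 136 and 605 at E80 against 1700.0, 67.8 and 418 at E60.

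Inward rectifiers hold the resting potential, and all 5 measured KCNJ genes had a mean signal below the array median. None passed. KCNJ8, which forms ATP-sensitive channels in pericytes and smooth muscle, had signals of 35.1, 30.1 and 27.9 at E80 and 36.0, 37.6 and 44.8 at E60. The days were narrowly apart, the log2 difference was -0.35 (adjusted p = 0.456), and its other probe sets had log2 differences of -0.57 and -0.08. Of the 2 measured pericyte markers none passed, and their summed signal was 523 to 554 at E80 and 527 to 603 at E60. KCNJ5 had a log2 difference of 0.62 (adjusted p = 0.397), with E60 replicate 1 among the E80 values, and it was 0.97 without that array and 0.39 without E60 replicate 2. The other probe set of KCNJ5 had a log2 difference of 0.02. The calcium-activated potassium channels, 4 genes, gave no call either. KCNMA1, the pore of the large-conductance channel of neurons and smooth muscle, had signals of 76.0, 62.0 and 40.7 at E80 against 38.2, 28.1 and 30.0 at E60, a log2 difference of 0.86 (standard error 0.27, adjusted p = 0.153). All E80 arrays were above E60, and only E80 replicates 1 and 2 were above the array median. On the other probe set of KCNMA1, below the median on every array, the days overlapped, with a log2 difference of 0.27. The partner of KCNMA1, KCNMB1, known from smooth muscle, had 9.90, 38.2 and 40.9 at E80 and 35.8, 22.7 and 41.1 at E60, with full overlap.

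Calcium channels of the voltage-gated kind were represented by auxiliary subunits only. None of 5 passed. CACNB4, a cytoplasmic beta subunit that brings the pore to the membrane, had signals of 246, 257 and 189 at E80 and 154, 155 and 151 at E60. The E60 arrays were nearly equal and all below E80. The log2 difference was 0.58 (standard error 0.14, adjusted p = 0.0793), and without E80 replicate 3 it was 0.72 with an adjusted p of 0.0485. CACNB3, another beta subunit, overlapped between the days, with a log2 difference of 0.14 that ran from 0.03 to 0.28 over the arrays left out. CACNG3, which by its name belongs to the calcium channels and is known as a transporter and modulator of AMPA receptors, had signals of 322, 157 and 329 at E80 and 165, 127 and 172 at E60. E80 replicate 2 lay within E60, and without it CACNG3 passed, with a log2 change of 1.08 (adjusted p = 0.0365), while the log2 difference over all arrays was 0.73 (adjusted p = 0.219). Of the 5 measured markers of neurons 1 rose and none fell. SNAP25, a protein of synaptic vesicle fusion, rose by 0.46 (adjusted p = 0.0342), while STMN2 differed by 0.19 (adjusted p = 0.294) and GAD1 by 0.12 (adjusted p = 0.662). The vesicle protein SYT1 differed by 0.37 (adjusted p = 0.0600) and GAD2 by -0.24 (adjusted p = 0.625). Their part in the differences of KCNF1, KCNIP4, CACNB4 and CACNG3 was not tested.

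Release of calcium from the reticulum runs through the ryanodine receptors (RYR) and the inositol trisphosphate receptors (ITPR), and ORAI channels refill the stores from outside. None of these 7 genes passed. RYR2, the ryanodine receptor of heart and of many neurons, had signals of 179.6, 181 and 146 at E80 and 97.9, 119.9 and 137 at E60. The days did not overlap, with a log2 difference of 0.52 (standard error 0.16, adjusted p = 0.142). On the other probe sets of RYR2, both dim, the days overlapped, with log2 differences of -0.11 and 0.79. ORAI3 had 81.9, 98.1 and 82.0 at E80 and 66.7, 59.7 and 78.9 at E60, a log2 difference of 0.36 (adjusted p = 0.319). RYR1, RYR3, ITPR1, ITPR3 and ORAI1 overlapped between the days, with log2 differences of -0.62 to 0.27. Of the TRP channels, TRPM7, a magnesium-permeable channel fused to a kinase, had signals of 84.5, 63.7 and 100.2 at E80 and 108, 109 and 104 at E60. Both of its probe sets kept all E80 arrays below E60, by -0.39 (adjusted p = 0.310) on the brighter and -0.74 (adjusted p = 0.148) on the dimmer, in log2 differences, the first of which was -0.22 without E80 replicate 2. TRPV6, a calcium channel of epithelia, was dim and had a log2 difference of -0.00.

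Among 50 genes listed as partners of these channels, such as sodium-calcium exchangers, calmodulins and the FGF12 family that binds sodium channels, 10 could be measured and none passed. In 5 of the 10 all E80 arrays lay above all E60 arrays, and in none all below, against 12.8% and 14.7% of the named genes. FGF12 had signals of 453, 438 and 429 at E80 and 341, 343 and 289.7 at E60, a log2 difference of 0.44 (adjusted p = 0.0682). Calmodulin, the calcium sensor that attaches to many of the channels above, differed by 0.39 on the log2 scale in CALM2 (adjusted p = 0.116) and by 0.40 in CALM3 (adjusted p = 0.129). FGF13 differed by 0.31 (adjusted p = 0.174) and the Golgi calcium pump ATP2C1 by 0.12 (adjusted p = 0.501).

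CLCN3 exchanges chloride for protons in endosomes and synaptic vesicles. Of 6 chloride channel and anoctamin genes it was the 1 that rose, and none fell. Its brightest probe set had signals of 649.5, 539 and 627 at E80 and 412, 414 and 428 at E60. The E60 arrays were close together and all below the lowest of E80. CLCN3 averaged 605 ± 58.4 at E80 and 418 ± 8.99 at E60 (SD, n = 3 each), a log2 change of 0.53 with a standard error of 0.10 (adjusted p = 0.0403, limma). The second probe set had signals of 286, 279 and 271 at E80 and 236, 227 and 235 at E60, a log2 difference of 0.26 (adjusted p = 0.189). The third had 127, 129 and 117 at E80 and 187, 143 and 136 at E60, a log2 difference of -0.31 (adjusted p = 0.326). On all 3 probe sets the days were apart, on the last in the opposite direction, and all 3 were above the array median on every array. The mean of the 3 probe sets gave a log2 difference of 0.16 (adjusted p = 0.432). Without single replicates the brightest probe set passed only without E80 replicate 2 (adjusted p = 0.0377 to 0.157). CLCN5, the relative of CLCN3 in endosomes of the kidney, had 54.8, 44.4 and 48.1 at E80 and 33.5, 35.2 and 32.02 at E60, a log2 difference of 0.54 (adjusted p = 0.195) without overlap and below the median on every array. ANO6, a calcium-activated lipid scramblase and channel, had a log2 difference of 0.35 (adjusted p = 0.313). CLIC1 had signals of 65.2, 104 and 103 at E80 and 108, 127 and 119 at E60, a log2 difference of -0.41 (adjusted p = 0.338) that was -0.19 without E80 replicate 1. CLCN2 and CLIC2 overlapped between the days.

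**Figure D3:**
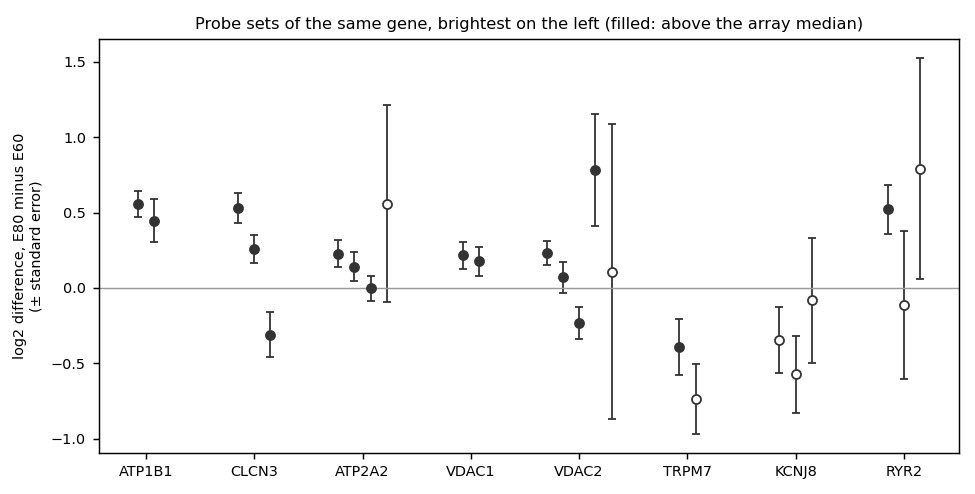
Log2 difference of E80 minus E60 (vertical axis) with its standard error for each probe set of 8 genes that have more than 1, ordered within a gene from the brightest on the left, and filled where the mean signal is above the array median. The probe sets of ATP1B1 lie together at 0.56 and 0.44, while those of CLCN3 run over 0.53, 0.26 and -0.31.

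VDACs form the pores of the outer mitochondrial membrane, through which ATP and metabolites pass. All 3 genes were above the median on every array, and none passed. VDAC1 had signals of 2120.2, 2055 and 1824 at E80 and 1772, 1641 and 1745 at E60, a log2 difference of 0.22 (standard error 0.09, adjusted p = 0.248), and its other probe set gave 0.18. VDAC2 had 1301, 1347 and 1277 at E80 and 1063, 1155 and 1125 at E60, a log2 difference of 0.23 (standard error 0.08, adjusted p = 0.170). The days were apart on both of these probe sets. The other 4 probe sets of VDAC2 all overlapped between the days, with log2 differences of 0.07, -0.24, 0.78 and 0.11. VDAC3 had a log2 difference of 0.15 (adjusted p = 0.436), which was 0.10 without E60 replicate 1. After quantile normalization the log2 differences were 0.09 in VDAC1, 0.12 in VDAC2 and 0.04 in VDAC3. In 14 of the 26 genes with several probe sets, some were higher and others lower at E80. Of the 5 genes with at least 2 probe sets above the median on every array, ATP1B1 and VDAC1 kept 1 direction over all of those.

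Connexins form gap junctions, in the cortex mainly between radial glia and between astrocytes. Of 5 genes none passed, and 4 were lower at E80 in mean log2 signal. GJA1, the connexin of radial glia and astrocytes, had signals of 647, 1153 and 941 at E80 and 1031, 1144 and 783 at E60. The days overlapped fully, with a log2 difference of -0.13 (standard error 0.22, adjusted p = 0.803). Of 5 measured astrocyte markers 1 rose on the same arrays, GFAP by 1.89 (adjusted p = 0.0304). The others did not pass, with log2 differences of 0.71 in S100B, 0.80 in SLC1A2, 0.12 in SLC1A3 and 0.80 in ALDH1L1. Both measured progenitor markers, VIM (-0.38, adjusted p = 0.179) and HES1 (-0.34, adjusted p = 0.287), had all E80 arrays below E60 without passing. TOP2A, the 1 measured marker of dividing cells, fell, with a log2 change of -1.11 (adjusted p = 0.0474). The part of these cells in the values of GJA1 was not tested. GJA5, the connexin of arterial endothelium, had signals of 22.5, 49.8 and 21.4 at E80 and 55.4, 53.0 and 70.2 at E60. E80 replicate 2 was close to E60 and the others far below it, with a log2 difference of -1.03 (standard error 0.34, adjusted p = 0.163). Without E80 replicate 2, GJA5 fell by 1.43 on the log2 scale (adjusted p = 0.0432). Only in E60 replicate 3 was its signal above the array median. Of 6 endothelial markers none passed, with a median log2 difference of -0.29. Their summed signal was 918 to 1154 at E80 and 1164 to 1252 at E60, with E80 replicate 2 the highest of its day. Most of this sum was CLDN5. Within E80, CLDN5, CDH5 and VWF were highest in replicate 2, PECAM1 and FLT1 were lowest there, and KDR lay between. Of 4 markers of fibroblasts and meninges none passed either. Their summed signal was 430 in E80 replicate 1, 847 in replicate 2 and 333 in replicate 3, against 819 to 1291 at E60. COL1A2, DCN and LUM were lower at E80 in mean log2 signal and, within E80, highest in replicate 2. COL3A1 went the other way, with a log2 difference of 0.22, and was highest within E80 in replicate 1. The part of these cells in the values of GJA5 was not tested. GJA4, also vascular, and GJB5 overlapped between the days. GJB1, the connexin of oligodendrocytes, was dim on all arrays and had a log2 difference of 0.79 (adjusted p = 0.555), which was 1.36 without E60 replicate 1 and 0.39 without E60 replicate 3.

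Purinergic receptors sense extracellular ATP and ADP. None of the 3 passed. P2RY12, the ADP receptor by which resting microglia are recognised, had signals of 44.0, 23.4 and 133 at E80 and 32.3, 16.1 and 19.4 at E60. Only E80 replicate 3 was far above the other arrays, and it was the only one above the median. The log2 difference was 1.25 (standard error 0.59, adjusted p = 0.313), and 0.57 without that replicate. All 3 measured markers of microglia, AIF1, C1QA and TYROBP, were highest on the same array, and their summed signal was 125, 149.7 and 378 in E80 replicates 1, 2 and 3, against 88.6 to 140 at E60. FXYD7 was highest on this array too, as were 5 of the 6 measured choroid plexus markers, all but KCNE2. Some markers of astrocytes and oligodendrocytes were also highest there. GFAP had 456, 678 and 1258 in E80 replicates 1, 2 and 3, and MBP, a myelin protein, had 162, 68.3 and 466. The summed signal of 5 oligodendrocyte markers, none of which passed, was 740 in E80 replicate 3, 256 and 315 in the other E80 replicates and 166 to 214 at E60. MBP and OLIG2 made up most of the 740. MAG was also highest in E80 replicate 3, CNP was not, and SOX10 was lowest there of all arrays. The sum of 5 astrocyte markers was 2449 in E80 replicate 3, 1236 and 1286 in the other E80 replicates and 647 to 772 at E60. Like GFAP, S100B and SLC1A2 were highest in E80 replicate 3, while SLC1A3 and ALDH1L1 were not. The part of these cells in FXYD7 and P2RY12 was not tested. The ATP-gated channel P2RX4 differed by 0.22 on the log2 scale (adjusted p = 0.618), and by 0.04 without E60 replicate 3, while P2RY2 overlapped between the days.

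**Figure D4:**
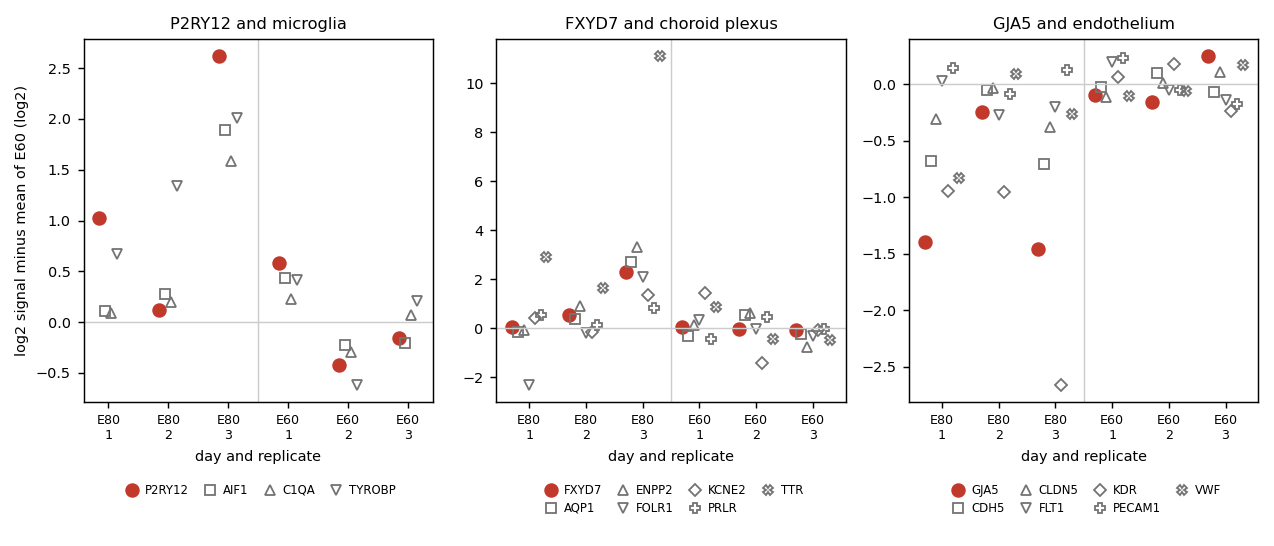
Log2 signal on each array relative to the mean of the 3 E60 arrays (vertical axes) for P2RY12, FXYD7 and GJA5 (red) beside the measured markers of microglia, choroid plexus and endothelium (grey symbols), with E80 replicates left of E60 replicates. P2RY12 (signal 133) and FXYD7 (signal 304) are high in E80 replicate 3, where the microglial and most choroid plexus markers are also high, and GJA5 is near E60 in E80 replicate 2 (signal 49.8).

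The calls changed with the arrays used. The 3 genes passed after quantile normalization, median centring, with 32 added to each signal and among the brightest 66% of probe sets. In limma without the intensity trend none passed, with adjusted p of 0.160 for ATP1B1, 0.134 for KCNF1 and 0.177 for CLCN3, and with the mean of all probe sets of a gene only KCNF1 did. None of the 64 passed without E60 replicate 1, without E60 replicate 2 or without E80 replicate 1, when 15, 14 and 12 were under an unadjusted p of 0.05. Without E60 replicate 1, 3212 of the 23999 probe sets met the same cut. The calls over all 23999 probe sets were lost in the same fits. Of these probe sets 0 passed without the trend, and 1 remained without E60 replicate 1, E60 replicate 2 or E80 replicate 1.

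**Figure D5:**
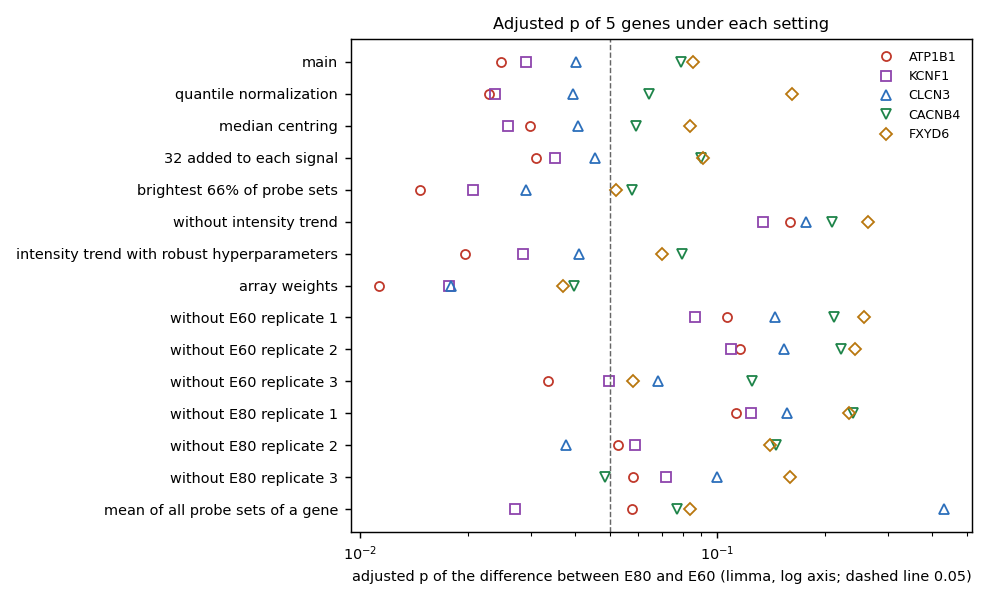
Adjusted p of limma (horizontal axis, log scale, with a dashed line at 0.05) for ATP1B1, KCNF1, CLCN3, CACNB4 and FXYD6 under each setting, the first being the one reported. ATP1B1 has an adjusted p of 0.0248 with all arrays and of 0.107 without E60 replicate 1.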

How the data were processed

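RNA of the cerebral cortex of 3 embryos per day was hybridised to 1 array each. The table deposited by the authors holds linear intensity values, MAS5 signals multiplied by 1 factor per array (a trimmed mean of the signals, without the extremes, is 150.02 on every array). The sources used here name no MAS5 version, detection calls per probe set were not used, and the study gives the share of probe sets called present per array. The table is the only file, and no column was left out.

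Of 24123 probe sets, 124 controls were left out and 23999 tested. Symbols come from the platform annotation, in which 10069 probe sets carry exactly 1, and 61 of the 64 symbols were found unchanged in the RefSeq gene table of Sscrofa11.1. No coordinates or sequences are printed. From the deposited signals, log2 values without a pseudocount were compared with limma 3.58.1 in R 4.3.3 (lmFit, eBayes with an intensity trend, both days, no covariates). P-values were adjusted by Benjamini-Hochberg across the probe sets tested, at a threshold of 0.05. The study's text gives no statistical test for its arrays. On simulated data with 23999 probe sets, limma found 98 of 100 changed 2-fold and 100 of 100 changed 3-fold, with 9 false calls. The simulated spread depended on signal level alone, the form that the intensity trend assumes, and changes were put only into probe sets above the median. Smaller changes, such as those of ATP1B1 and CLCN3, were not simulated, so their recovery is not known from it.

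The members, gene groups, partners and markers were chosen with earlier results of these data known. Genes named with values were those that passed, the 8 brightest, the 8 largest differences without overlap above the median, the 2 with the smallest p in each group, and any that 1 array set apart by a fold of 4 (none did). KCNB2, KCNIP2, CACNB3, ATP1B4, FXYD2, FXYD3, FXYD5, CLIC1 and ANO6, and genes given only in ranges or without values, were named after their values were seen. Alternatives were other scalings, 32 added to each signal, a filter on dim probe sets, other variance models, array weights, the mean of all probe sets of a gene and leaving out each array. Array signals have no counting depth, and 3 arrays per day limit the precision.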

Additional observations from a re-analysis of the deposited data

How the results depend on the processing

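The count of 3 genes called was the same after quantile normalization, median centring, 32 added, the brightest 66% of probe sets and robust hyperparameters. In limma without the intensity trend it was 0 (14 at an unadjusted p under 0.05), with array weights 5 (with CACNB4 and FXYD6), with the mean of all probe sets of a gene 1 (KCNF1), and 0 to 3 with single replicates left out. It was 1 without E80 replicate 3 (CACNB4), 2 without E60 replicate 3 (ATP1B1 and KCNF1) and 3 without E80 replicate 2 (CLCN3 and CACNG3, which rose, and GJA5, which fell). Over all probe sets, 467 were called, 763 among the brightest 66%, 0 without the trend (3706 at an unadjusted p under 0.05), 1169 with array weights and 1 to 367 with a replicate left out, where 1 remained without E60 replicate 1, E60 replicate 2 or E80 replicate 1. The median log2 difference of the 64 genes was 0.15 after quantile normalization, 0.33 after median centring, 0.12 with 32 added and 0.12 to 0.22 with a replicate left out. The number above the median was 25, 30 by the mean signal and 21 with the mean of all probe sets. TRPV6 changed sign, to 0.047 after quantile normalization, 0.11 after median centring and 0.032 with 32 added, and it ran over -0.35 to 0.58 with a replicate left out, with GJA1 at -0.32 to 0.10 and KCNMB1 at -0.73 to 0.29. The other genes run under these alternatives kept their direction wherever a value was obtained. The causes were not tested. No paired analysis was possible because the labels give no replicate numbers shared by the days. Dim genes had wider errors, with a median standard error of 0.39 for the 34 below the median and 0.16 for the 30 above it.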

Other observations

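The probe sets other than the brightest one, 41 in all, gave no call. An unadjusted p under 0.05 was found in 4 of them, against 4308 of all 23999 probe sets. The log2 differences of the 41 ran from -1.72 on a probe set of RYR3 to 1.52 on one of KCNE1, both below the array median on every array. The RYR3 probe set had signals of 6.12, 10.1 and 0.818 at E80 and 13.8, 11.5 and 11.3 at E60, so that E80 replicate 3 carried most of the size. The KCNE1 probe set had signals of 5.98, 9.40 and 4.78 at E80 and 4.46, 3.57 and 0.717 at E60, with E60 replicate 3 far below the others. KCNE2, a potassium channel subunit of the choroid plexus that was not among the 64 genes, had signals of 6.24, 4.16 and 11.96 at E80 and 12.7, 1.75 and 4.38 at E60, with full overlap. All of these genes were chosen after their values were seen.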
